A study of Caenorhabditis elegans with 6 samples.

Results

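The 10 genes described here encode the main structural proteins of basement membranes in the nematode Caenorhabditis elegans: the type IV collagen chains emb-9 and let-2, the collagen XVIII gene cle-1, the laminin chains lam-1, lam-2, lam-3 and epi-1, the nidogen gene nid-1, the perlecan gene unc-52 and the SPARC gene ost-1. They were chosen by name, and each symbol matched 1 of the 46778 gene identifiers in the expression table. Whole-animal RNA was sequenced in 6 libraries, 3 from untreated Control animals and 3 from treated animals, whose libraries are titled HLB01. HLB01 is a code name. The title of the series speaks of an extract from the root of Vicatia thibetica and of collagen. The agent label of the treated libraries changes from HLB01 to HLB02 and HLB03 while their titles call all of them HLB01. Groups follow the titles here. If the labels name different agents, each agent has 1 library and the comparisons mix agents. Strain, genotype, stage, dose and length of treatment are not given in the sources used here, and nothing says whether replicates came from separate cultures, so each p-value reflects the spread of these libraries, which may be technical.

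Basement membranes are thin sheets of matrix that line muscle, epidermis, intestine, pharynx and gonad. Laminin trimers, each of an alpha, a beta and a gamma chain, assemble at the cell surface, and type IV collagen trimers form a covalently linked second network that gives the sheet its strength. Nidogen and perlecan bind to both networks, and SPARC is a secreted glycoprotein that binds collagen. In C. elegans, body-wall muscle and somatic gonad are known as main sources of type IV collagen, which differs from the cuticle collagens that the epidermis makes for the outer surface.

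Levels are in TPM, which the authors scaled for transcript length and to a common total, so genes can be compared with each other. All 10 genes had at least 1 TPM in at least 3 libraries, and they were tested in one fit with the 12590 genes that did. Values were analysed as log2(TPM + 1), and a fold change on this scale understates the change of low genes. None of the 10 genes rose or fell between the groups in limma with Benjamini-Hochberg adjustment over all tested genes (threshold 0.05), against 0.397% of all tested genes, 0.167% higher and 0.230% lower. No member reached an unadjusted p under 0.05 either, against 8.32% of all tested genes, and in none did the HLB01 values lie wholly outside the Control values, against 13.8%. Fitted differences were negative for 7 members and positive for 3, against a negative share of 51.3% in all tested genes. Their median was -0.03 on the log2 scale, and that over all tested genes was 0.00.

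In levels the 10 genes spanned a 100.1-fold range. The SPARC gene ost-1 was highest at 145 ± 8.89 TPM (mean ± SD over the 6 libraries). It was followed by lam-1 at 51.04 ± 8.03 TPM, let-2 at 38.9 ± 5.06 TPM, emb-9 at 23.4 ± 2.54 TPM and cle-1 at 18.7 ± 0.576 TPM. Low levels were those of unc-52 at 7.92 ± 1.07 TPM, nid-1 at 7.44 ± 0.430 TPM, lam-2 at 5.80 ± 0.733 TPM, epi-1 at 3.02 ± 0.309 TPM and lam-3 at 1.45 ± 0.130 TPM. Each gene lay above the next one of this order in 6 of 6 libraries, apart from unc-52, which lay above nid-1 in 3 of 6, so these neighbours had no order. The ranges of lam-1 and let-2 also overlapped across libraries, although lam-1 was the higher within each one.

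**Figure D1:**
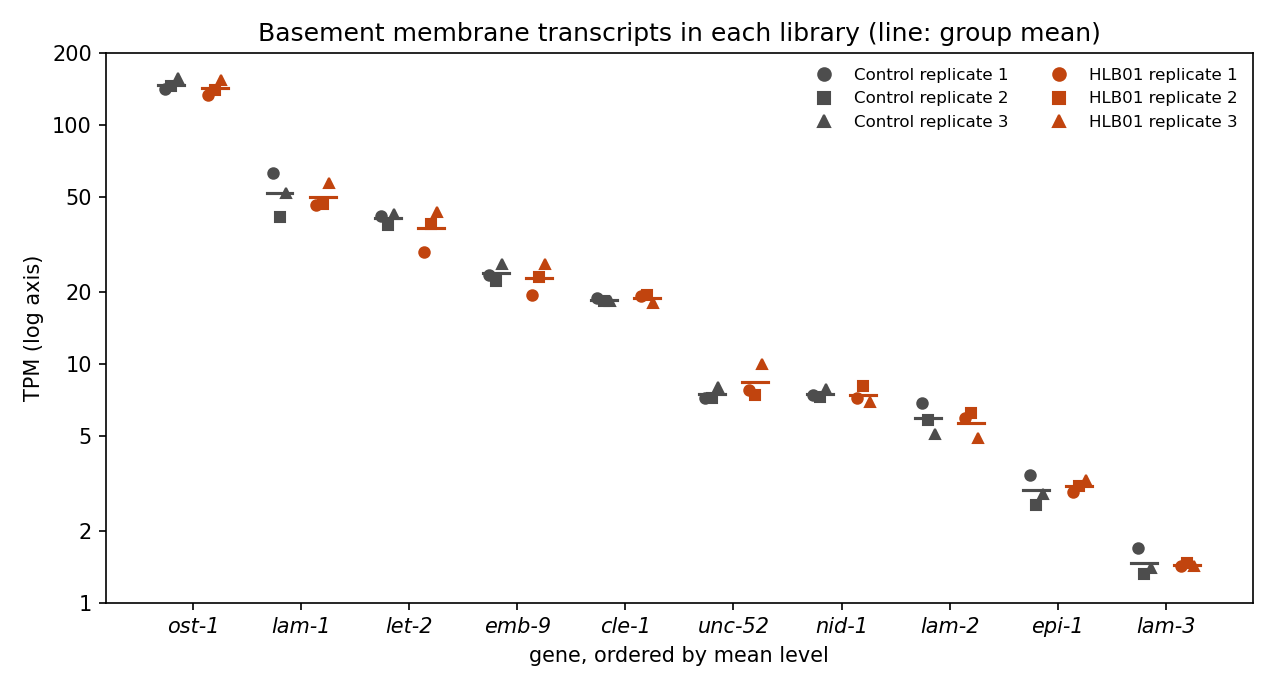
Level of each basement membrane gene in TPM on a log axis, with 1 point per library and a line at each group mean (grey, Control; orange, HLB01; n = 3 each). The order from ost-1 to lam-3 is the same in both groups except where unc-52 and nid-1 meet, and the points of the groups overlap for all 10 genes.

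Both type IV collagen genes had slightly lower means in HLB01 animals, by less than the spread between replicates. The gene emb-9 (WBGene00001263, WBcel235 chromosome III, 9336881 to 9344447, minus strand) encodes the alpha1 chain, 1759 residues long in its longest annotated form. It was at 23.5, 22.3 and 26.1 TPM in Control replicates 1 to 3 and at 19.4, 23.01 and 26.2 TPM in HLB01 replicates 1 to 3. The highest and the lowest value were both those of HLB01 libraries, replicates 3 and 1, with the Control values between them. Its log2 fold change was -0.07 ± 0.11 (SE; 95% confidence interval -0.34 to 0.20, limma adjusted p = 0.912).

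The gene let-2 (WBGene00002280, chromosome X, 16380597 to 16389340, minus strand) encodes the alpha2 chain, whose longest form also has 1759 residues. It was at 41.5, 38.3 and 42.4 TPM in Control and at 29.5, 38.6 and 43.3 TPM in HLB01. The value of HLB01 replicate 1 stood below the other 5, which lay within 38.3 to 43.3 TPM. Its log2 fold change was -0.15 ± 0.13 (95% confidence interval -0.46 to 0.16, limma adjusted p = 0.832), the most negative of the 10. Without HLB01 replicate 1 the log2 fold changes turned to 0.04 for emb-9 and 0.01 for let-2, and without HLB01 replicate 3 they were -0.17 and -0.26, neither past the threshold (limma adjusted p = 0.723 and 0.601). As folds, the intervals ran from 0.791 to 1.15 for emb-9 and from 0.728 to 1.12 for let-2.

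Type IV collagen trimers of C. elegans hold more EMB-9 than LET-2 chains, while the transcripts were in the opposite order. The ratio of emb-9 to let-2 TPM was 0.603 (geometric mean of the 6 libraries), and lay between 0.566 and 0.615 in Control and between 0.597 and 0.659 in HLB01. These ranges overlapped. The difference of the log2 ratio was 0.08 (Control -0.77 ± 0.06, HLB01 -0.69 ± 0.08; mean ± SD, n = 3 each; two-sided exact permutation p = 0.3, where 0.1 is the smallest p that 3 against 3 libraries allow). Over the 4 ratios tested in this and the laminin comparison, the adjusted p was 0.6.

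The collagen XVIII gene cle-1 (WBGene00000527, chromosome I, 8705668 to 8724279, minus strand) encodes a collagen whose C-terminal domain is the worm relative of vertebrate endostatin and which is known for roles in cell and axon migration. Its levels were 18.8, 18.3 and 18.4 TPM in Control and 19.2, 19.4 and 17.95 TPM in HLB01. It was the steadiest of the 10 genes, with a within-group SD of 0.04 on the log2 scale, and the groups overlapped. The log2 fold change was 0.03 ± 0.06 (95% confidence interval -0.12 to 0.17, limma adjusted p = 0.938). On the opposite strand its exons share 158 bp with those of cdk-8, whose mean was 50.9 TPM in the Control and 54.3 TPM in the HLB01 libraries, and without a stated strand setting reads from the shared stretch cannot be told apart.

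**Figure D2:**
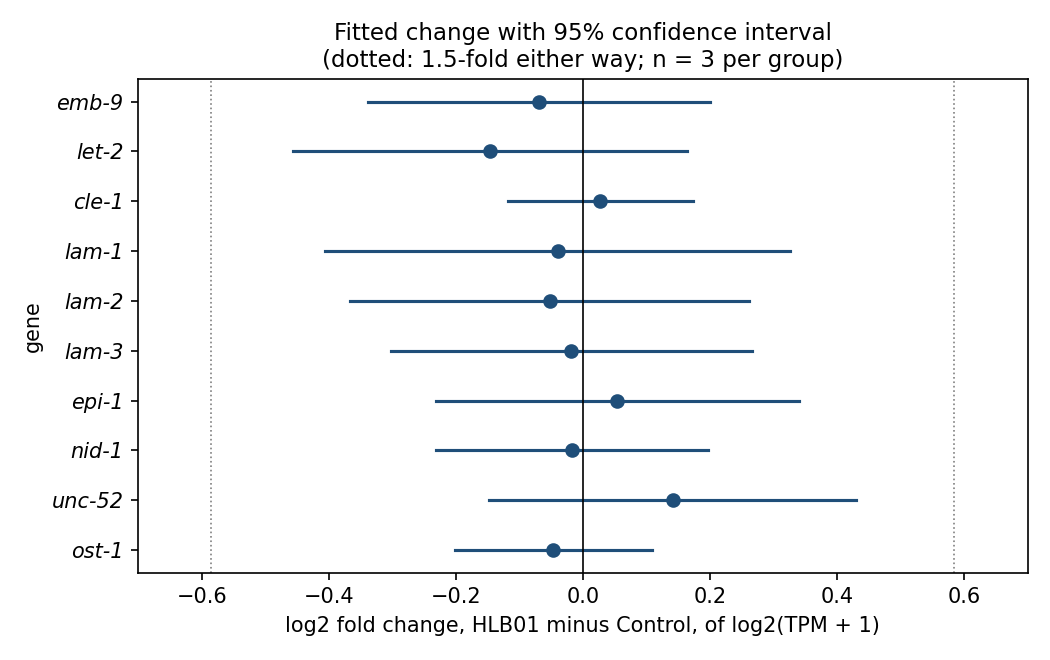
Fitted log2 fold change of HLB01 minus Control for each of the 10 genes, with its 95% confidence interval from limma (n = 3 per group); dotted lines mark 1.5-fold in either direction. Every interval crosses 0 and lies within the dotted lines, from -0.46 for let-2 to 0.43 for unc-52.

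None of the laminin chains passed the test, and their fitted differences had both signs. The gene lam-1 (WBGene00002247, chromosome IV, 5173332 to 5183746, plus strand) encodes the only beta chain and lam-2 (WBGene00016913, chromosome X, 7143846 to 7151239, minus strand) the only gamma chain, so both are part of every laminin trimer. The level of lam-1 was 63.1, 41.3 and 51.7 TPM in Control and 46.1, 46.8 and 57.3 TPM in HLB01. Control replicates 1 and 2 were its highest and lowest values, and the HLB01 libraries lay between them. It had the largest spread of the 10 genes, with a within-group SD of 0.24 on the log2 scale and a coefficient of variation of 21% in Control. Its log2 fold change was -0.04 ± 0.16 (95% confidence interval -0.41 to 0.33, limma adjusted p = 0.968), and it ran from -0.19 without Control replicate 2 to 0.11 without Control replicate 1.

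The gamma chain gene lam-2 was at 6.86, 5.83 and 5.09 TPM in Control and at 5.92, 6.22 and 4.87 TPM in HLB01, again with overlapping groups. The log2 fold change was -0.05 ± 0.13 (95% confidence interval -0.37 to 0.26, limma adjusted p = 0.949). Its lowest values were those of replicate 3 in both groups, where lam-1 was not low. The ratio of lam-1 to lam-2 TPM was therefore wide, 7.08 to 10.1 in Control and 7.53 to 11.8 in HLB01, and its log2 value differed by 0.02 (two-sided exact permutation p = 1). Leaving out Control replicate 2 gave a difference of -0.13, and leaving out HLB01 replicate 3 gave -0.19. The annotation lists a lam-1 transcript of 231 bp beside one of 5901 bp, whereas lam-2 has a single transcript of 6043 bp. Gene-level TPM does not separate transcripts of such different lengths, and how much of the lam-1 level each contributes was not analysed here.

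The alpha chains are alternatives to each other in the trimer. EPI-1 is the alpha chain of many tissues' basement membranes, and LAM-3 is known from a more limited set, the pharynx among them. The gene epi-1 (WBGene00001328, chromosome IV, 10666823 to 10679291, plus strand) was at 3.43, 2.57 and 2.85 TPM in Control and at 2.91, 3.08 and 3.27 TPM in HLB01, with a log2 fold change of 0.05 ± 0.12 (95% confidence interval -0.23 to 0.34, limma adjusted p = 0.938). The gene lam-3 (WBGene00002248, chromosome I, 10608466 to 10621435, plus strand) was at 1.70, 1.32 and 1.39 TPM in Control and at 1.42, 1.46 and 1.42 TPM in HLB01, with a log2 fold change of -0.02 ± 0.12 (95% confidence interval -0.30 to 0.27, limma adjusted p = 0.981). In both genes the groups overlapped, and both the highest and the lowest library were Control replicates 1 and 2, as for lam-1. All 4 laminin chains were thus at their highest in Control replicate 1.

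The ratio of epi-1 to lam-3 TPM was 1.95 to 2.05 in Control and 2.05 to 2.30 in HLB01. The ranges met at their ends, and the log2 ratio differed by 0.10 (Control 1.00 ± 0.04, HLB01 1.11 ± 0.09; n = 3 each; two-sided exact permutation p = 0.2, adjusted p = 0.6 over the 4 ratios). On the opposite strand, epi-1 exons share 29 bp with those of K08C7.4, whose means were 1.70 TPM (Control) and 1.46 TPM (HLB01). On the log2(TPM + 0.1) scale, which compresses low levels less, the log2 fold changes were 0.07 for epi-1 and -0.03 for lam-3, and the intervals as folds ran from 0.812 to 1.36 and from 0.709 to 1.36.

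The balance of type IV collagen to laminin overlapped between the groups. The summed TPM of emb-9 and let-2, divided by that of the 4 laminin genes, was 0.866 to 1.19 in Control and 0.868 to 1.07 in HLB01. The log2 ratio was lower by 0.09 in HLB01 (0.07 ± 0.24 in Control, -0.02 ± 0.16 in HLB01; n = 3 each; two-sided exact permutation p = 0.6, adjusted p = 0.8), and this difference was -0.22 without Control replicate 1, 0.00 without Control replicate 2 and 0.01 without HLB01 replicate 1.

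**Figure D3:**
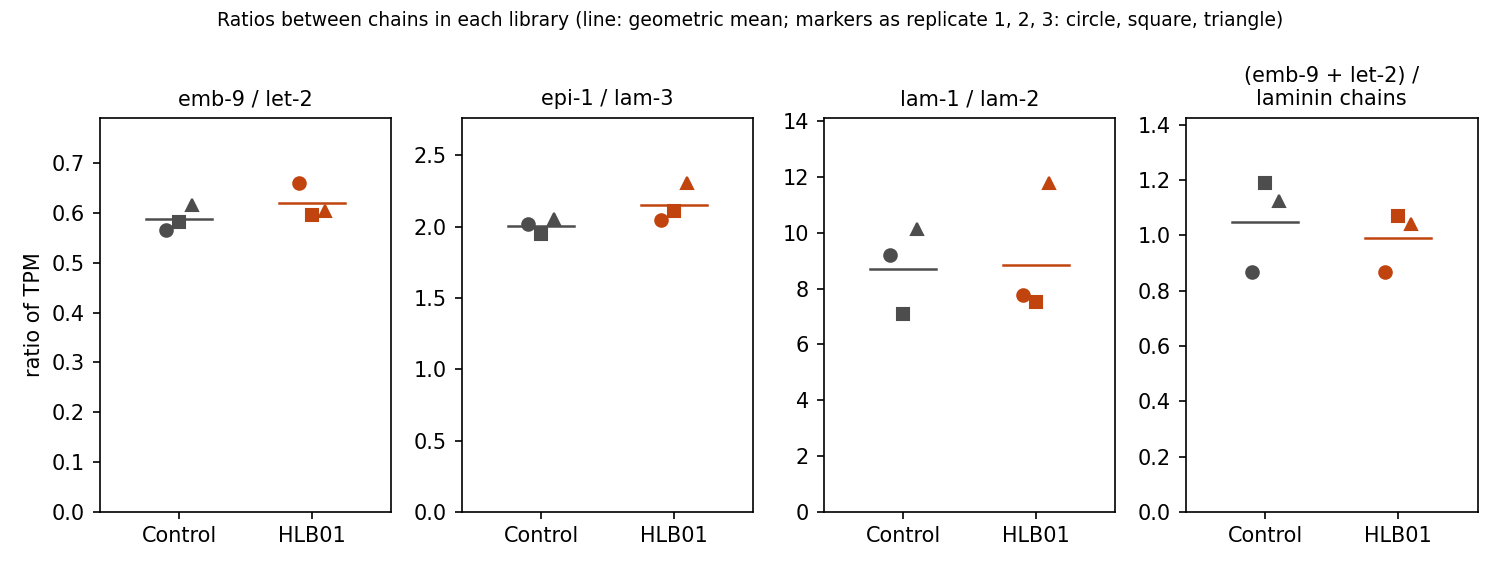
Ratios of TPM between basement membrane genes in each library, with a line at the geometric mean of each group (grey, Control; orange, HLB01; n = 3 each). In all 4 panels the groups overlap or meet, and emb-9 lies below let-2 (ratio 0.566 to 0.659) in all 6 libraries.

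The linking proteins nidogen and perlecan had overlapping levels. The nidogen gene nid-1 (WBGene00003738, chromosome V, 12910107 to 12917221, plus strand), known in C. elegans for its part in axon guidance and synapse shape, was at 7.37, 7.23 and 7.85 TPM in Control and at 7.19, 8.06 and 6.93 TPM in HLB01. The HLB01 libraries held both extremes. Its log2 fold change was -0.02 ± 0.09 (95% confidence interval -0.23 to 0.20, limma adjusted p = 0.977).

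The perlecan gene unc-52 (WBGene00006787, chromosome II, 14647321 to 14684456, minus strand) encodes the matrix protein that anchors the contractile filaments of body-wall muscle. It was at 7.19, 7.18 and 8 TPM in Control and at 7.79, 7.37 and 10.0 TPM in HLB01. One library, HLB01 replicate 3, stood above the other 5. The log2 fold change of 0.14 ± 0.12 was the most positive of the 10 (95% confidence interval -0.15 to 0.43, limma adjusted p = 0.828), and it was 0.02 without that library. With 17 annotated transcripts, unc-52 has the most of the 10 genes, and they run from 414 bp to 12546 bp among the coding ones, so a change between its isoforms would not be seen in these gene-level values.

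The SPARC gene ost-1 (WBGene00003893, chromosome IV, 1107396 to 1110872, plus strand) is the shortest of the 10, with a longest product of 264 residues. Its levels were 141, 145 and 157 TPM in Control and 134, 140.5 and 155 TPM in HLB01. The groups overlapped almost fully. The log2 fold change was -0.05 ± 0.07 (95% confidence interval -0.20 to 0.11, limma adjusted p = 0.896), and it went to 0.00 without HLB01 replicate 1.

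Taking the 10 genes one by one, the ratio of mean TPM was at most 1.12-fold, for unc-52. All 10 intervals of the log2 fold change lay within 1.5-fold in either direction, from 0.728-fold to 1.35-fold, and on the log2(TPM + 0.1) scale from 0.709-fold to 1.39-fold. The narrowest intervals were those of cle-1, from 0.922-fold to 1.13-fold, and ost-1, from 0.869-fold to 1.08-fold. The within-group SD of the 10 genes had a median of 0.14 on the log2 scale, against 0.11 for all tested genes.

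The libraries differed among themselves. HLB01 replicate 3 stood apart on principal component 1 (31.3% of variance), at 32.01 where the other 5 lay between -15.3 and -0.57, and its ribosomal RNA level was 4895 TPM against 530 to 2684 TPM. Of the 10 genes, 3 had their highest and 3 their lowest value in that library. Such extremes were not particular to it: Control replicate 1 held 4 highest, Control replicate 2 held 4 lowest and HLB01 replicate 1 held 3 lowest values. Among the markers of other tissues that were measured, most of those of body-wall muscle, intestine, epidermis, neurons, somatic gonad and germline were detected. Epidermal markers include the larval cuticle collagen gene dpy-7, at only 0.04 to 0.60 TPM, and of 10 epidermal markers 6 passed the filter on low values, as did 5 of 7 matched markers of the somatic gonad. The gonad marker ehn-3 was listed at 0 in 3 of 6 libraries and the epidermal genes rol-6 and wrt-2 in 1 each, and the early embryo marker hlh-27 was listed at 0 in all libraries.

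By their median, body-wall muscle markers were low in HLB01 replicates 1 and 2, whereas emb-9 and let-2 were low in HLB01 replicate 1 only. Of 16 markers, 15 were tested and none passed, against 0.397% of all tested genes. An unadjusted limma p under 0.05 was reached by 2, both lower in HLB01, against 8.32% of all tested genes. A negative log2 fold change was found in 12 (median -0.18), against 51.3% of all tested genes. Their summed level was 990 to 1045 TPM in Control and 840 to 1072 TPM in HLB01, and none was at 0 in all libraries. The muscle myosin gene unc-54 was at 43.6, 39.6 and 42.7 TPM in Control and at 28.5, 34.7 and 47.9 TPM in HLB01 (limma adjusted p = 0.814). It was lowest in HLB01 replicate 1 and highest in HLB01 replicate 3, as emb-9 and let-2 were. Most of the tested muscle markers did not share this order and had their lowest or highest value in another library. The second myosin gene myo-3 had 3.31 ± 0.185 TPM in the Control and 3.08 ± 0.510 TPM in the HLB01 libraries (mean ± SD, n = 3 each; limma adjusted p = 0.898). Measured from the Control mean, the muscle markers had a median of -0.28, -0.26 and 0.11 on the log2 scale in HLB01 replicates 1 to 3, whereas emb-9 was at -0.28, -0.05 and 0.13. In the same HLB01 libraries let-2 was at -0.45, -0.08 and 0.09. The part of the muscle markers in the values of the collagen genes was not tested, and in whole animals fewer cells of a type and less RNA per cell cannot be told apart.

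**Figure D4:**
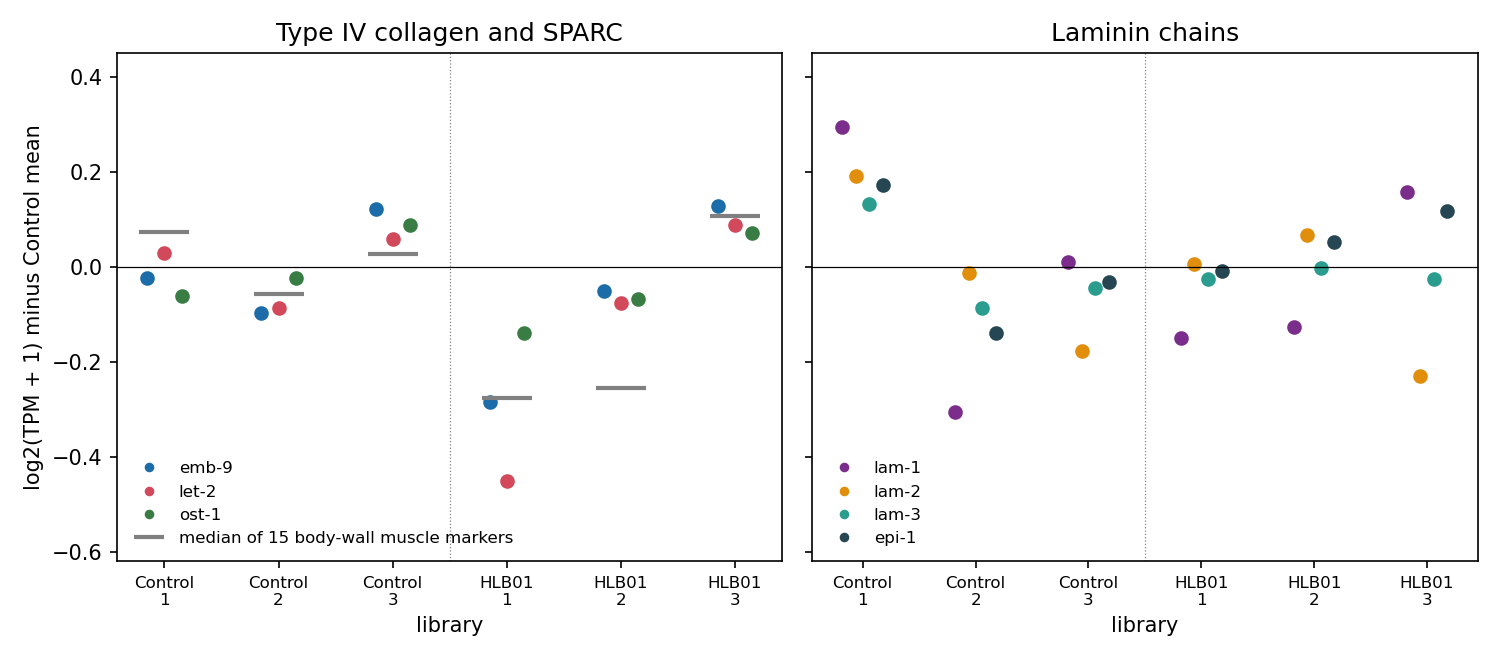
Level of each gene in each library as log2(TPM + 1) minus its Control mean, for emb-9, let-2 and ost-1 (left, with the median of 15 body-wall muscle markers as grey bars) and for the laminin chains (right). On the left, emb-9, let-2 and ost-1 are all at their lowest in HLB01 replicate 1 (-0.28, -0.45 and -0.14); on the right, the chains scatter in different orders, with Control replicate 1 highest for all of them.

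Other marker lists gave no gene past the threshold in limma, against 0.397% of all tested genes. An unadjusted limma p under 0.05 was reached by 4 of 9 tested intestinal markers (3 lower and 1 higher in HLB01). It was also reached by 1 each of the epidermal, germline and sperm markers (all lower). Over all tested genes the share was 8.32%. Early embryo markers had a negative log2 fold change in 6 of 6 tested genes (12 listed; median -0.33), and their list summed to 18.6 to 26.3 TPM in Control and 13.8 to 21.1 TPM in HLB01. Pharyngeal muscle markers had a positive one in 4 of 5 tested genes (median 0.08). Groups did not overlap for 4 of the 9 intestinal markers, against 13.8% of all tested genes. The intestinal list summed to 3533 to 3908 TPM in Control and 2981 to 3435 TPM in HLB01, without overlap. Most of this sum was asp-1, at 2898 to 3244 TPM in Control and 2375 to 2827 TPM in HLB01 (limma adjusted p = 0.433). The intestinal transcription factor gene elt-2 had 12.9 ± 0.840 TPM in the Control and 11.7 ± 0.593 TPM in the HLB01 libraries (mean ± SD, n = 3 each, limma adjusted p = 0.750). The synaptic vesicle gene rab-3 had 3.69 ± 0.185 TPM (Control) and 4.45 ± 0.300 TPM (HLB01, limma adjusted p = 0.632), with no overlap between the groups, as in 13.8% of all tested genes. Of 10 tested neuronal markers 6 had a positive and 4 a negative log2 fold change (median 0.03). Of 5 tested markers of the somatic gonad, another source of type IV collagen, 2 had a positive and 3 a negative log2 fold change (median -0.02), and their list summed to 89.1 to 101 TPM in Control and 88.0 to 93.9 TPM in HLB01.

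The likeness of patterns across libraries was measured as the root mean square difference from emb-9 of the log2(TPM + 1) values, each gene centred on its own mean over the 6 libraries. By this measure let-2 was the 90th and ost-1 the 134th closest of all other tested genes, at 0.07 each, against a median of 0.18 over all of them. The remaining 7 members ranked from 3365 (unc-52) to 9730 (lam-2). The 5 closest genes outside the members, among 7414 with a mean of at least 10 TPM, were F39B2.5 (0.02), the caenacin gene cnc-10 (0.03), the carbonic anhydrase gene cah-3 (0.03), dcaf-1 (0.03) and the S-adenosylmethionine decarboxylase gene smd-1 (0.04). These values come from 6 libraries that share depth and scaling, and genes that vary little are near each other by this measure. A gene with no variation would lie at 0.14, which is how far emb-9 itself varied around its mean. The remaining 7 members lay no closer than that, from 0.14 (unc-52) to 0.25 (lam-2).

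Genes that work with the basement membrane were read in the same fit. None of 60 tested genes in 5 lists passed, against 0.397% of all tested genes. None reached an unadjusted limma p under 0.05 either, against 8.32% of all tested genes. The first list holds other matrix proteins, of which 10 of 13 were tested, 5 with a positive and 5 with a negative log2 fold change (median -0.01). The smallest p was that of the testican gene test-1, with 21.98 ± 2.21 TPM in the Control and 24.7 ± 0.921 TPM in the HLB01 libraries (difference of 0.16 ± 0.08 on the log2 scale, limma adjusted p = 0.675). Groups did not overlap for 3 of the 10, against 13.8% of all tested genes. These 3 were picked out only once their values were known: the fibulin gene fbl-1 (higher in HLB01), the glypican gene lon-2 and the transmembrane collagen gene col-99 (both lower). The peroxidasin gene pxn-2, whose enzyme family cross-links type IV collagen, was at 0.64 to 0.87 TPM and was not tested. The other peroxidasin gene of the list, pxn-1, had 3.02 ± 0.381 TPM (Control) and 3.46 ± 0.124 TPM (HLB01). Its log2 fold change was 0.15 (limma adjusted p = 0.794), and it did not pass.

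Receptors of the basement membrane are integrins, dystroglycans, syndecan, discoidin domain receptors and others. Of 13 genes 11 were tested, 2 with a positive and 9 with a negative log2 fold change (median -0.04). The beta integrin gene pat-3 had the smallest p, with 64.5 ± 3.82 TPM (Control) and 59.98 ± 2.43 TPM (HLB01), a difference of -0.10 ± 0.06 on the log2 scale (limma adjusted p = 0.719). In the complex that ties integrins to muscle filaments, 3 of 11 tested genes had a positive and 8 a negative log2 fold change (median -0.09), with the alpha-actinin gene atn-1 with 17.8 ± 0.549 TPM (Control) and 15.6 ± 1.43 TPM (HLB01), a difference of -0.18 ± 0.08 on the log2 scale (limma adjusted p = 0.617). Groups did not overlap for 2 of the 11, against 13.8% of all tested genes. These were atn-1 and unc-95, both lower in HLB01, the latter picked out with its values known.

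Among proteases of the matrix and their inhibitors, 8 of 13 genes were tested, 4 in each direction (median 0.00). The matrix metalloproteinase gene zmp-1 had the most negative value, at 3.54, 4.17 and 4.14 TPM in Control and at 2.15, 4.15 and 2.11 TPM in HLB01, a difference of -0.42 ± 0.21 on the log2 scale (limma adjusted p = 0.675). HLB01 replicate 2 was at the Control level and the other HLB01 libraries were below it. The inhibitor genes timp-1 and cri-2 were both among the tested genes and did not pass.

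The last list holds enzymes and carriers that modify, fold and export collagen. Of 24 names 21 matched a gene and 20 were tested, 8 with a positive and 12 with a negative log2 fold change (median -0.02). The smallest p was that of fkb-3, of the FK506-binding prolyl isomerases, with 10.8 ± 0.845 TPM (Control) and 13 ± 1.58 TPM (HLB01), a difference of 0.24 ± 0.11 on the log2 scale (limma adjusted p = 0.617). The lysyl hydroxylase gene let-268, whose enzyme is needed for type IV collagen in C. elegans, was at 98.9, 94.1 and 102 TPM in Control and at 104.5, 104.6 and 106 TPM in HLB01. Its groups did not overlap, with all HLB01 values higher, as in 1 of the 20 tested genes of this list and 13.8% of all tested genes. It did not pass (log2 fold change 0.10, limma adjusted p = 0.617), and it too was picked out with its values known.

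**Figure D5:**
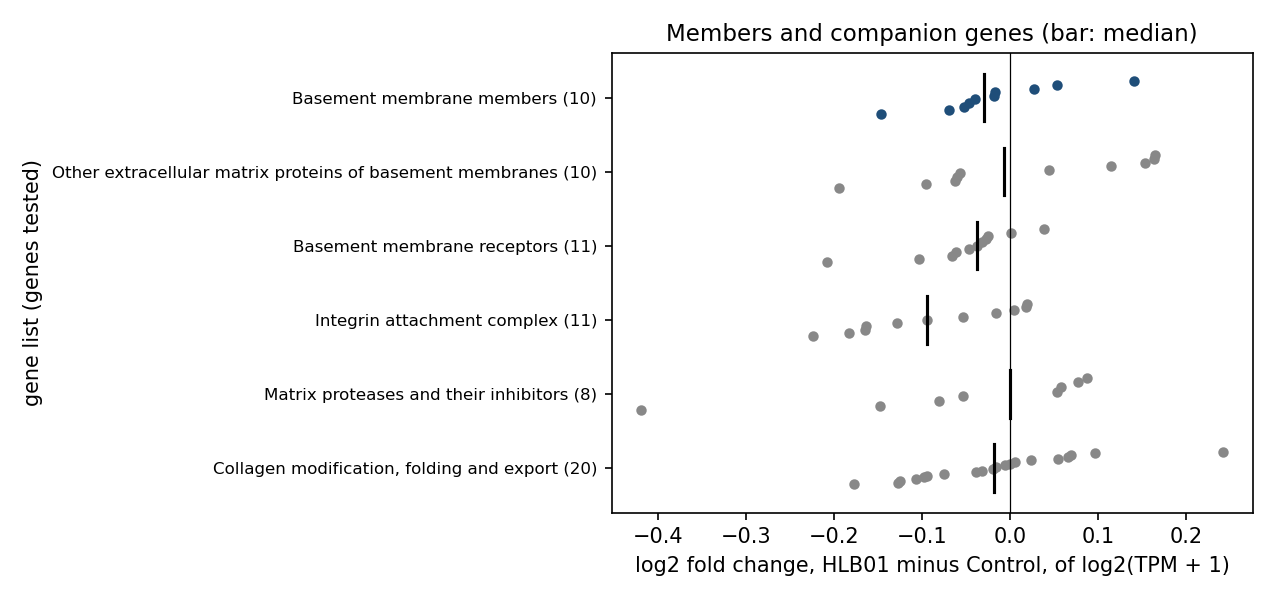
Log2 fold change of HLB01 minus Control for the 10 basement membrane genes (blue) and for tested genes of 5 related lists (grey), 1 point per gene with a bar at the median of each list. The medians lie between -0.09 and 0.00, and zmp-1 at -0.42 is the point farthest from 0.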

How the data were processed

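RNA of C. elegans was sequenced in 6 libraries. Titles gave the groups, 3 Control and 3 HLB01 libraries. The authors deposited 1 table of TPM values for 46778 genes, 1 column per library, whose totals of 996559 to 997388 were the basis for reading the unit as TPM. The submitters' processing notes name the tools fastp, HISAT and RSEM and the build WBcel235; versions, annotation release and strand setting are not given in the sources used here. TPM keeps no read depth, so the depth behind each value is unknown and no counting error is given. Symbols, coordinates and transcript lengths came from the Ensembl release 115 annotation of WBcel235.

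The 12590 genes that reached 1 TPM in 3 or more libraries were compared on the log2(TPM + 1) scale (limma 3.58.1 in R 4.3.3, fitted with a trend of variance on level, two-sided), with Benjamini-Hochberg adjustment; 50 passed 0.05, 21 higher and 29 lower. The fit was also run on simulated data, drawn independently from the means of the genes and their fitted spread. Effects of whole libraries were not part of that simulation and so were not checked by it. Ratios between genes were compared by exact permutation over libraries. The genes and lists were chosen with earlier results of these data known. Named genes are the 10 members, in each related list those that passed or the 1 with the smallest p, unc-54, myo-3, elt-2, dpy-7 and rab-3, the 5 genes nearest to emb-9, and genes overlapping a member at 1 TPM or more. The genes fbl-1, lon-2, col-99, pxn-1, pxn-2, unc-95, timp-1, cri-2, let-268, asp-1, hlh-27, ehn-3, rol-6 and wrt-2 fall outside this rule and were named with their values known. Names in the lists without a single matching gene (phy-4.1, phy-4.2, sec-13, tag-312, opt-2 and ssp-9) were not used. Alternatives were 10 settings of the model, scaling, pseudocount and filter, and leaving out each of the 6 libraries.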

Additional observations from a re-analysis of the deposited data

How the results depend on the processing

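None of the 10 basement membrane genes passed under any of 16 alternatives (158 values, smallest limma adjusted p = 0.601, for let-2 without HLB01 replicate 3), nor did any reach an unadjusted p under 0.05; 16 of the 158 changed sign. Array weights turned lam-2 to 0.0052 and nid-1 to 0.0079, and median centring turned lam-3 to 0.0033 and nid-1 to 0.0047. With 1 library left out, log2 fold changes ran from -0.168 to 0.038 (emb-9), -0.264 to 0.0065 (let-2), -0.193 to 0.108 (lam-1), -0.141 to 0.043 (lam-2), -0.062 to 0.047 (lam-3), -0.016 to 0.140 (epi-1), -0.073 to 0.023 (nid-1) and -0.104 to 0.00061 (ost-1), while cle-1 and unc-52 stayed positive. The median of the members ran from -0.059 to 0.041, the last without Control replicate 1. Differences of log2 ratios ran from -0.19 to 0.14 (lam-1 to lam-2), -0.224 to 0.0077 (type IV collagen to laminin), 0.03 to 0.11 (emb-9 to let-2) and 0.05 to 0.14 (epi-1 to lam-3). Over all genes, the 50 calls became 27 without the trend, 80 with array weights, 22 with no filter on low values and 19 to 32 with 1 library left out. The last setting also had fewer samples, and the cause of these changes was not tested. The filter of 5 TPM removed epi-1 and lam-3. Deviations from the group means correlated at -0.01, 0.04 and 0.13 between same-numbered libraries. Libraries of different number correlated at -0.16 to 0.14. With 3 libraries per group, these values cannot decide whether the numbers pair the libraries. With the replicate block 48 genes passed and no member did, and the exact p of the emb-9 to let-2 ratio was 0.5.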
